A study of Homo sapiens with 12 samples.

Results

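The genes described here are 10 regulators of the E2F, RB and DREAM network, taken by Ensembl identifier from the 20595 rows of the deposited count table. They are the pocket proteins RB1, RBL1 and RBL2, the E2F factors E2F3, E2F4, E2F5, E2F6 and E2F7, and the transcription factors MYBL2 and FOXM1. The libraries came from A549 and H1792, established human lung adenocarcinoma lines that both carry an MDM2 amplification. A549 is p53 WT and H1792 is p53 mutant. Cells received DMSO, the solvent, or RG7112 at 1 μM, and both treatments lasted 48 h. RG7112 is a small-molecule MDM2 inhibitor that keeps MDM2 from holding p53. Each of the 4 groups had 3 replicates, which gave 12 samples. The header of the count table names a dose of 0.1 μM instead, and the dose of the labels was used. Each p53 background was represented by 1 cell line, so p53 status cannot be told apart from any other difference between A549 and H1792.

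In G1, pocket proteins hold E2F factors and keep E2F target genes silent. Cyclin D and cyclin E kinases phosphorylate the pocket proteins, which frees the activating E2F factors to switch on genes of DNA replication. In resting cells and after p53 has induced the CDK inhibitor p21, RBL1 or RBL2 joins E2F4 or E2F5, a DP partner and the MuvB core as the DREAM complex, which represses cell cycle genes. In cycling cells the same MuvB core binds MYBL2 and then FOXM1 and activates the genes of G2 and mitosis. E2F6 and E2F7 repress E2F targets without a pocket protein. Lung adenocarcinoma cell lines in culture usually cycle, with MYBL2 and FOXM1 among their expressed genes.

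The stretches of DNA just before the transcription start are shown for MYBL2 and E2F7, whose mRNA changed in one of the cell lines, and for E2F3 and RBL1, whose windows each hold more than 1 E2F word. The sequences are from RefSeq (GRCh38.p14) and give the 250 bases before the RefSeq start on the strand of the gene. GENCODE v29, the source of the gene positions given below, starts MYBL2 at 43667019 and E2F7 at 77065580. Both positions lie within the printed windows, so the end of each window falls inside that gene. The word marked in MYBL2 lies in that part. The E2F words searched on either strand were TTNNCGC, where each N was C or G, and the same words ending in CGG, which were added after the MYBL2 window had been read. The words for the cell cycle homology region (CHR), the element that MuvB contacts, were TTNGAA with N as T or C, also on either strand. Capitals mark these words.
MYBL2 (chr20:43666864-43667113, plus strand): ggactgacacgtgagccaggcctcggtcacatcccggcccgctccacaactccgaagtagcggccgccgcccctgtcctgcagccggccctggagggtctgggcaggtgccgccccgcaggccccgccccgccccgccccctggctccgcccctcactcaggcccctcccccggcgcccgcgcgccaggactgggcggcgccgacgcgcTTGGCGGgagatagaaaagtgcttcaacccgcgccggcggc
E2F7 (chr12:77065570-77065819, minus strand): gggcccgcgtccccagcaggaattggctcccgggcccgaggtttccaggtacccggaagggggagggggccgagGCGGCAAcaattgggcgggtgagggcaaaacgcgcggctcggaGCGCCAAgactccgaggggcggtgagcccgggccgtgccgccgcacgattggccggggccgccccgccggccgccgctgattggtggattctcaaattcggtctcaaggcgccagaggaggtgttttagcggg
E2F3 (chr6:20401629-20401878, plus strand): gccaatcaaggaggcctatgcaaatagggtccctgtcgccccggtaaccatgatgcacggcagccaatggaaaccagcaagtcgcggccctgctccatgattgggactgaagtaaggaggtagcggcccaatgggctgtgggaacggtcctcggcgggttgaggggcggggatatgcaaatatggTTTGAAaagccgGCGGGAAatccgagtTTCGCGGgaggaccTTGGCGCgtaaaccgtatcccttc
RBL1 (chr20:37095998-37096247, minus strand): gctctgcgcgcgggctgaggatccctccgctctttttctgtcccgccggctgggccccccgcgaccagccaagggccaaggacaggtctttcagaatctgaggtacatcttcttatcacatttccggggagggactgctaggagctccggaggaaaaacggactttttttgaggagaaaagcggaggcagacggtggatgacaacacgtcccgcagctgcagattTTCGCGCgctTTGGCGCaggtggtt
The capitals in MYBL2 are TTGGCGG at -41 to -35, counted from the start at 0. E2F7 held 2 E2F words on the other strand, beginning at -176 and -133. E2F3 held a CHR word at -65 and E2F words at -53, -38 and -24, and RBL1 held E2F words at -25 and -15.

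Over the windows of 300 bases, which also include 50 bases after the start, 15.3% of 27305 genes held an E2F word ending in CGC, 15.9% held one ending in CGG and 19.5% held a CHR word. E2F6 held both kinds of E2F word. RBL2 held TTTGAA from 24 to 29 after the start of one of its windows. E2F4 held none of these words, which says only that these letters are not in this window. The same words were counted in target genes of these regulators. Of 17 G1/S genes with E2F sites that had a window, 14 (82.4%) held an E2F word ending in CGC. Of the same genes, 9 (52.9%) held one ending in CGG and 2 (11.8%) a CHR word. Of 19 G2/M genes bound by MYBL2, MuvB and FOXM1, 5 (26.3%) held an E2F word ending in CGC, 6 (31.6%) one ending in CGG and 14 (73.7%) a CHR word. Both lists were chosen for such sites or binding, so these shares follow in part from the choice and are no test. A word in a window is a description and does not show that a factor binds there.

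The total per sample was between 2011916 and 6218825 estimated counts, and 3 counts stood for at most 1.39 CPM (a gene's counts relative to library size, with TMM factors over all 12 samples) in any sample. That floor covers counting error only. A gene passed the test when edgeR's quasi-likelihood test gave a Benjamini-Hochberg adjusted p under 0.05 over all genes tested, and the p-values measure the spread between replicates, which may be technical. In bulk RNA, fewer cells that express a gene cannot be told apart from less RNA per cell. In A549, replicate 3 of both treatments stood apart from replicates 1 and 2 on the second principal component (25.6% of the variance). The 5 epithelial markers EPCAM, KRT7, KRT8, KRT18 and KRT19 summed to 14226 to 18869 CPM in A549 with DMSO and to 17006 to 24517 CPM with RG7112. In H1792 the sums were 1745 to 2061 CPM with DMSO and 1094 to 1361 CPM with RG7112, without overlap. KRT7, KRT8, KRT18 and KRT19 passed lower in H1792, and EPCAM, with a log2 fold change of 1.22, did not pass. EPCAM could not be tested in A549. The fibroblast list of COL1A1, COL1A2, DCN and LUM was at 1134 to 1370 CPM in H1792 and at 1.86 to 9.08 CPM in A549. Of this list, only the collagen genes COL1A1 and COL1A2 had enough counts to be tested in H1792. LUM had no count in H1792 with DMSO. The blood list of PTPRC, CD3E, CD68 and HBB summed to 10.7 to 34.7 CPM in A549 with DMSO and to 43.2 to 106 CPM with RG7112, without overlap, and to 8.27 to 17.7 and 7.37 to 11.2 CPM in H1792. Nearly all of that sum was CD68, a macrophage marker, whose log2 fold change of 1.61 in A549 did not pass (adjusted p = 0.102), although it differed between the lines by 2.18 (adjusted p = 0.0384). PTPRC, of all leukocytes, and HBB, of red cells, were at 0 in all samples with RG7112, and CD3E, of T cells, in all 12. The part of the blood list in the results was not tested. The endothelial list stayed at or below 1.86 CPM.

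**Figure D1:**
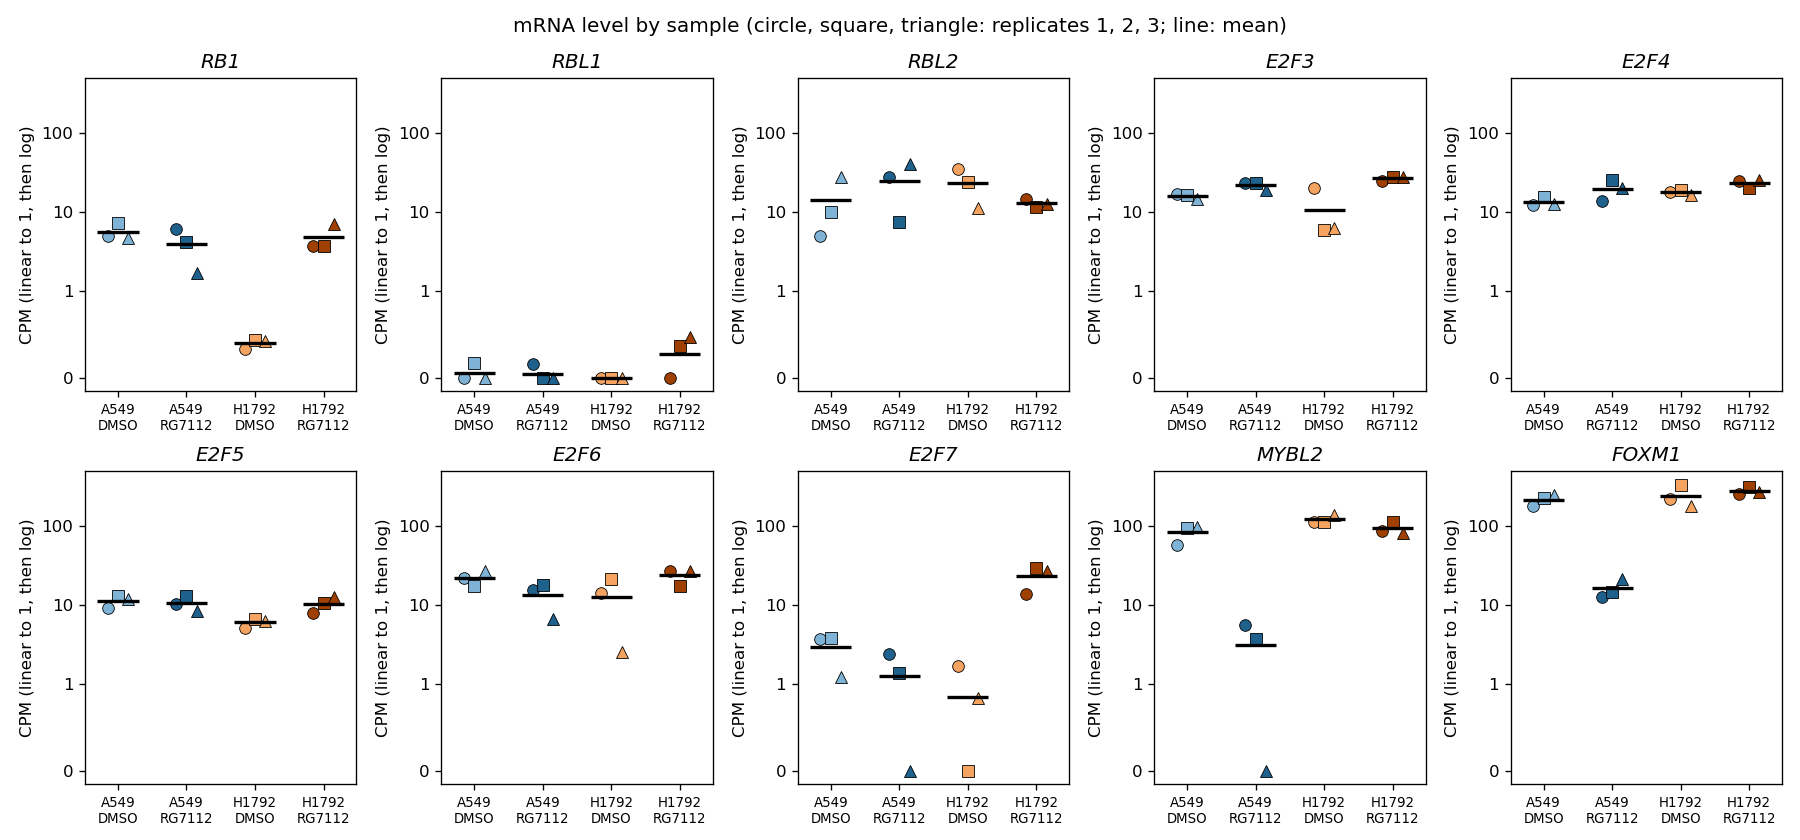
mRNA level of the 10 regulators in every sample, in CPM on an axis that is linear up to 1 and logarithmic above. Circles, squares and triangles are replicates 1, 2 and 3 and lines are means of 3 samples. The A549 samples with RG7112 lie far below those with DMSO for MYBL2 and FOXM1, and the H1792 samples with RG7112 lie above those with DMSO for RB1 and E2F7.

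Levels of different genes were compared per length, as CPM per kb of exon. The length was the union of exons, and the order and overlaps of levels hold for that length only. The mean coding transcript is much shorter for some genes, at 1257 against 5928 bases for E2F5 and 1271 against 3582 for E2F4. For E2F6 these were 3294 and 4067 bases, and for E2F3 4423 and 5164. The order by coding transcript is not given. With DMSO, FOXM1 and MYBL2 had the highest levels in both cell lines. In A549 they stood at 44.8 ± 6.64 and 30.3 ± 8.28 CPM per kb (SD, n = 3), and the ranges of the 2 genes did not overlap. By the union of exons, E2F6 (5.50 ± 1.15), E2F4 (3.75 ± 0.471) and E2F3 (3.11 ± 0.239) followed, each apart from its neighbour in the ranges of the 3 samples. The level of RBL2 (1.96 ± 1.68) overlapped that of E2F3 and of E2F5 (1.92 ± 0.335). RB1 (0.876 ± 0.226), E2F7 (0.464 ± 0.232) and RBL1 (0.00978 ± 0.0169) were lowest.

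In H1792 with DMSO, FOXM1 (50.1 ± 15.7 CPM per kb) and MYBL2 (44.3 ± 5.25) overlapped each other and lay above all other regulators. The levels of E2F4 (4.99 ± 0.363), RBL2 (3.21 ± 1.61), E2F6 (3.14 ± 2.36), E2F3 (2.08 ± 1.55) and E2F5 (1.02 ± 0.147) followed, and neighbours in that order overlapped. E2F7 (0.134 ± 0.134) and RB1 (0.0618 ± 0.00813) overlapped as well, and RBL1 had no count.

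RG7112 changed the order in A549. E2F4 (5.54 ± 1.63 CPM per kb) and E2F3 (4.25 ± 0.476) then had the highest means, FOXM1 (3.34 ± 0.946) was below RBL2 (3.44 ± 2.27), and MYBL2 (1.12 ± 1.03) was below E2F6 (3.32 ± 1.49) and E2F5 (1.78 ± 0.397), although neighbouring genes overlapped all along that order. In H1792 with RG7112, FOXM1 (57.6 ± 5.88) and MYBL2 (33.9 ± 5.89) stayed on top without overlap. By the union of exons, E2F7 (3.74 ± 1.34) was then above E2F5 (1.77 ± 0.420), RBL2 (1.76 ± 0.202) and RB1 (0.749 ± 0.311) in all 3 samples. The place of E2F7 above E2F5 depends on that length, since their mean coding transcripts are 2927 and 1257 bases against 6303 and 5928.

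The response to RG7112 within each cell line was tested next. MYBL2 and FOXM1 fell in A549, and no pocket protein and no E2F factor passed the test there. In H1792 the pocket protein RB1 and the E2F factor E2F7 rose, and MYBL2 and FOXM1 did not pass. In A549, 8 of the 10 regulators could be tested, of which 2 passed lower and 0 higher. Over all 10739 genes tested there, 4.03% passed lower and 4.35% higher. At an unadjusted p under 0.05, 0 of the 6 pocket proteins and E2F factors tested in A549 passed, beside 2567 of all 10739 genes. So few genes cannot show that these families respond less than other genes. DESeq2 called MYBL2 and FOXM1 only. In H1792, 9 regulators were tested, of which 2 passed higher and 0 lower, against 17.7% higher and 16.5% lower of 9914 genes. Of the H1792 calls over all genes, 51.8% were higher, and 75.6% were when counts were scaled by library size only, which moved the median of all genes to 0.27. At an unadjusted p under 0.05, MYBL2 was lower in H1792, and RB1, E2F7, E2F3 and E2F5 were higher. Of the 9914 genes tested there, 4556 had such a p in either direction. DESeq2 called 3 regulators in H1792, E2F3 in addition to RB1 and E2F7. The median log2 fold change was -0.32 over the 8 regulators in A549 and 0.76 over the 9 in H1792, against -0.01 and 0.01 over all genes tested.

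**Figure D2:**
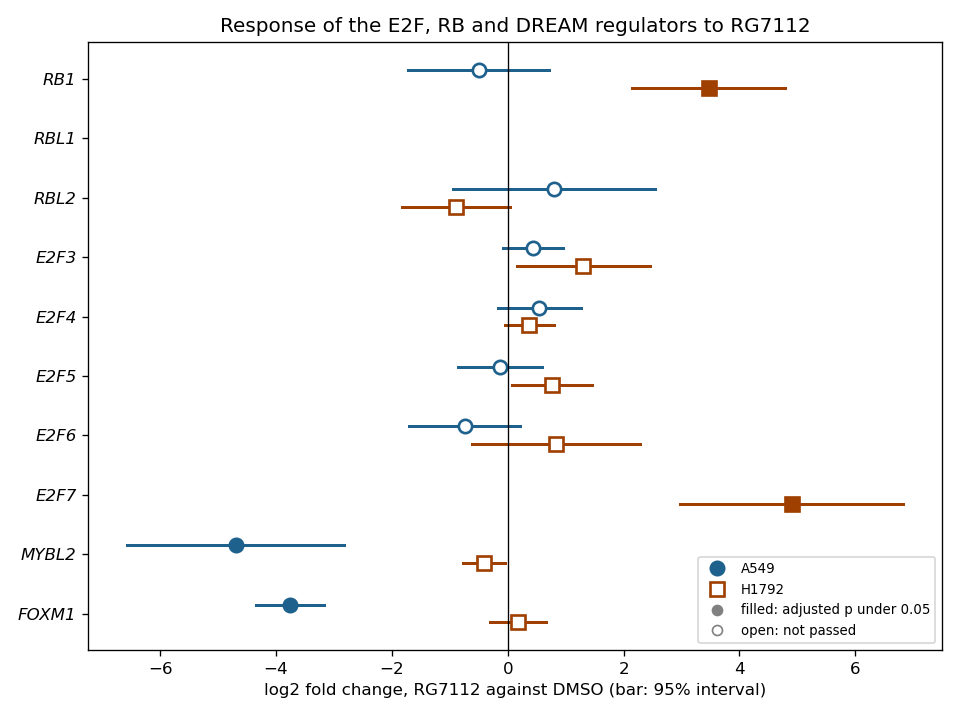
log2 fold change of each regulator, RG7112 against DMSO, with its 95% interval in A549 (circles) and H1792 (squares), filled where the adjusted p is under 0.05. FOXM1 (-3.76) and MYBL2 (-4.70) are filled on the left in A549, and RB1 (3.47) and E2F7 (4.90) on the right in H1792. RBL1 could be tested in neither line and E2F7 not in A549.

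RB1, the retinoblastoma protein that binds the activating E2F factors, lies on chromosome 13 (48303726 to 48599436, plus strand, in GENCODE v29 on GRCh38). Its level was 4.91, 7.34 and 4.71 CPM in the A549 DMSO samples and 6.11, 4.18 and 1.66 CPM with RG7112. The 2 treatments overlapped, with a log2 fold change of -0.50 (95% interval -1.72 to 0.71, adjusted p = 0.615). In H1792, RB1 was nearly unread with DMSO, at 0.338, 0.436 and 0.421 CPM, and reached 3.69, 3.67 and 7.15 CPM with RG7112. Every H1792 sample with RG7112 lay above every one with DMSO. The fitted log2 fold change was 3.47 (SE 0.551, adjusted p = 0.00598). Since the 3 DMSO samples held 4 counts in all, against 64 with RG7112, the ratio of the counts per depth was 11.8, with an exact 95% interval for counting error of 4.39 to 44.6.

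RBL1 (p107), which binds the repressive E2F factors, had no more than 2 counts in any sample. It was read at 0 in all H1792 DMSO samples, which allows a level of up to 0.302 CPM over the group, and at 0, 0.367 and 0.477 CPM with RG7112. RBL1 was therefore not detectable as changed at this depth, and no fold is given. RBL2 (p130), the pocket protein of DREAM in resting cells, lies on chromosome 16 (53433977 to 53491649, plus strand). It varied widely between replicates. In A549 it was at 4.91, 9.96 and 28.3 CPM with DMSO and at 27.7, 7.42 and 40.4 CPM with RG7112, so the treatments overlapped (log2 fold change 0.79, 95% interval -0.95 to 2.54, adjusted p = 0.580). The H1792 values were 34.9, 24.2 and 11.4 CPM with DMSO and 14.5, 11.5 and 12.6 CPM with RG7112, and also overlapped (-0.90, -1.83 to 0.04, adjusted p = 0.120). Without H1792 DMSO replicate 3, the lowest of the 3, RBL2 passed in H1792 at -1.22 (adjusted p = 0.0265).

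E2F3 is the activating member of the family in this set (chromosome 6, 20401906 to 20493715, plus strand). In A549 it was at 16.9, 16.6 and 14.6 CPM with DMSO and at 23.5, 23.2 and 19.1 CPM with RG7112. The treatments did not overlap, and the log2 fold change of 0.44 did not pass the test (95% interval -0.08 to 0.96, adjusted p = 0.286). The H1792 values were 20.0, 5.88 and 6.32 CPM with DMSO and 24.7, 28.2 and 27.9 CPM with RG7112. These did not overlap either, and the log2 fold change of 1.31 missed the threshold (0.15 to 2.46, adjusted p = 0.0786). DMSO replicate 1 of H1792 lay close to the RG7112 samples, and without it the log2 fold change was 2.12, with an adjusted p of 0.00741. E2F3 in H1792 passed in 4 of 11 alternative fits. DESeq2 gave an adjusted p of 0.0415 and limma-trend one of 0.0438. It was 0.0473 with at least 10 counts in every sample and 0.0411 with all 12 samples in one fit.

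E2F4 and E2F5 are the repressive E2F factors that pair with RBL1 and RBL2. E2F4 (chromosome 16, 67192169 to 67198918, plus strand) was at 12.3, 15.4 and 12.6 CPM in A549 with DMSO and at 13.8, 25.5 and 20.2 CPM with RG7112. In H1792 it was at 18.3, 18.9 and 16.4 CPM with DMSO and at 24.7, 20.3 and 25.5 CPM with RG7112. The treatments overlapped in A549 but not in H1792, and neither log2 fold change passed (0.54, adjusted p = 0.338, and 0.37, adjusted p = 0.152). E2F5, on chromosome 8, was at 9.22, 13.1 and 11.9 CPM in A549 with DMSO and at 10.3, 13.0 and 8.30 CPM with RG7112. It was at 5.08, 6.75 and 6.32 CPM in H1792 with DMSO and at 7.90, 10.6 and 12.9 CPM with RG7112. The H1792 treatments did not overlap, and the log2 fold changes were -0.14 in A549 (adjusted p = 0.839) and 0.76 in H1792 (adjusted p = 0.0862).

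E2F6, which represses E2F targets as part of the PRC1.6 complex, lies on chromosome 2 (11444375 to 11466177, minus strand). In A549 it was at 22.4, 17.6 and 27.0 CPM with DMSO and at 15.8, 18.1 and 6.64 CPM with RG7112. In H1792 the values were 14.2, 21.6 and 2.53 CPM with DMSO and 27.1, 17.4 and 26.9 CPM with RG7112. Both pairs overlapped, and neither the A549 log2 fold change of -0.75 (adjusted p = 0.323) nor the H1792 one of 0.84 (adjusted p = 0.321) passed.

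E2F7 is an atypical repressor that binds DNA without a DP partner (chromosome 12, 77021247 to 77065580, minus strand). In A549 it was at 3.69, 3.84 and 1.24 CPM with DMSO and at 2.41, 1.39 and 0 CPM with RG7112. These counts were too low for the model, the treatments overlapped, and the difference in log2(CPM + 1) was -0.88 (two-sided exact permutation p = 0.3, where 0.1 is the smallest p that 3 against 3 samples allow). In H1792, E2F7 was at 1.69, 0 and 0.843 CPM with DMSO and at 14.0, 29.9 and 26.9 CPM with RG7112. Each treated sample was far above each control sample. The log2 fold change was 4.90 (SE 0.805, adjusted p = 0.00664), and the ratio of 329 counts to 7, per depth, was 34.7 (16.6 to 86.9, counting error only). The log2 fold change was 6.13 without H1792 DMSO replicate 1 and 4.10 without H1792 DMSO replicate 2, and passed in both cases (adjusted p = 0.0114 and 0.0158).

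MYBL2 (B-Myb), which joins MuvB in S phase, lies on chromosome 20 (43667019 to 43716496, plus strand). In A549 it was at 57.8, 95.2 and 99.6 CPM with DMSO and at 5.63, 3.71 and 0 CPM with RG7112. The groups were far apart, and MYBL2 fell by 4.70 on the log2 scale (SE 0.795, adjusted p = 0.0146), a 25.9-fold difference. The call rested in part on 2 libraries, since the adjusted p was 0.0640 without A549 DMSO replicate 2 and 0.0614 without A549 RG7112 replicate 2. Without replicate 3 of both treatments, where the count of 0 stood, MYBL2 fell by 3.96 (adjusted p = 0.00642). It fell by 5.75 without A549 RG7112 replicate 1 (adjusted p = 0.0380) and by 4.11 without A549 RG7112 replicate 3 (adjusted p = 0.00498). In H1792 MYBL2 was at 115, 115 and 140 CPM with DMSO and at 88.2, 113 and 81.7 CPM with RG7112. All treated samples were lower, and the log2 fold change of -0.41 did not pass (95% interval -0.77 to -0.05, adjusted p = 0.0794). Without H1792 RG7112 replicate 2 it passed at -0.55 (adjusted p = 0.0470).

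FOXM1, which drives the mitotic genes after MYBL2, lies on chromosome 12 (2857681 to 2877155, minus strand). In A549 it was at 184, 227 and 248 CPM with DMSO and at 12.7, 14.8 and 21.6 CPM with RG7112. FOXM1 fell by 3.76 on the log2 scale (SE 0.249, adjusted p = 0.000463), a 13.6-fold difference with no overlap. The call held without any 1 of the 6 A549 samples, with a fold change between -4.02 and -3.57 on the log2 scale. In H1792 FOXM1 was at 220, 332 and 184 CPM with DMSO and at 262, 315 and 270 CPM with RG7112, which overlapped (log2 fold change 0.18, 95% interval -0.31 to 0.67, adjusted p = 0.540).

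Some of these genes overlap others on the opposite strand, namely FOXM1 with ITFG2 and RHNO1, RBL2 with AKTIP, E2F5 with C8orf59, and RB1 with LPAR6 and RCBTB2. Whether strand was used in counting is not given in the sources used here, so reads from shared exons may not be told apart. MYBL2, E2F4, E2F6 and E2F7 overlap no annotated gene.

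The GC content of a transcript went with its response. Across genes, Spearman's rho between GC content and the log2 fold change was 0.255 in A549 (9941 genes) and -0.472 in H1792 (9165 genes), as a description, since genes are not independent. RB1 has a GC content of 39.3%, E2F7 of 44.6%, FOXM1 of 54.3% and MYBL2 of 60.2%. After a correction for GC content in H1792, the log2 fold change of RB1 was 2.97 (adjusted p = 0.0111) and that of E2F7 was 4.60 (adjusted p = 0.00968). With the replicate number as a block in the same fit these were 2.88 (adjusted p = 0.0523) and 4.58 (adjusted p = 0.0564), so that neither passed. E2F4 (0.80, adjusted p = 0.0208) and RBL2 (-1.31, adjusted p = 0.0485) passed with the GC correction alone, in opposite directions, and MYBL2 moved from -0.41 to 0.07. In A549, FOXM1 and MYBL2 passed with and without that correction.

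**Figure D3:**
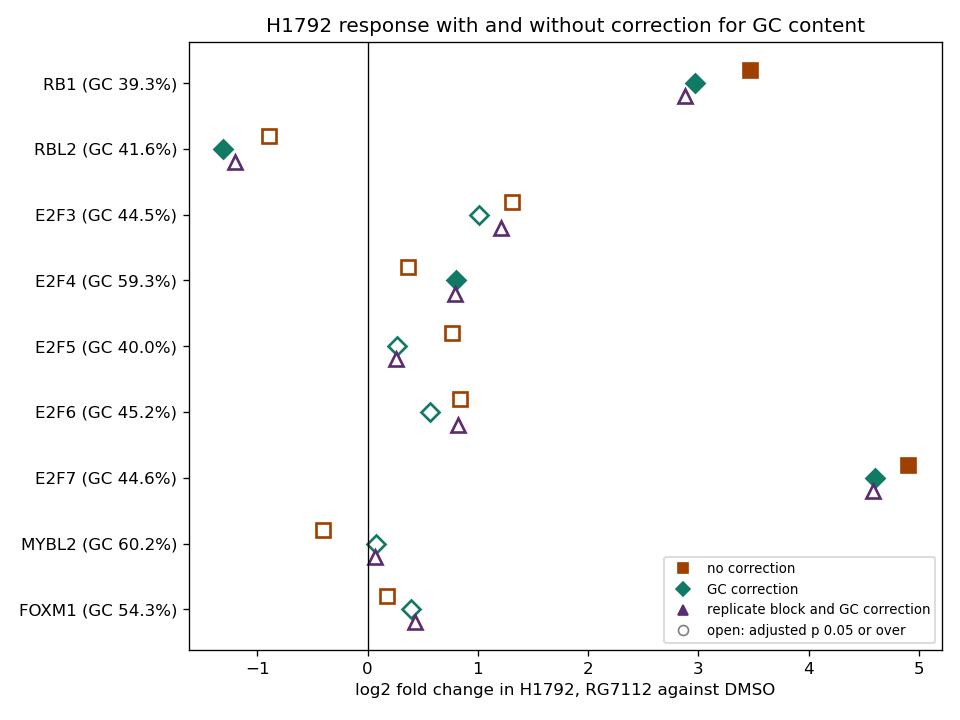
log2 fold change of 9 regulators in H1792, RG7112 against DMSO, without correction (squares), after correction for GC content (diamonds) and with a block for the replicate number added (triangles). Symbols are filled where the adjusted p is under 0.05. RB1 and E2F7 keep log2 fold changes above 2.8 and 4.5 in all 3 fits, and no triangle is filled.

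The response of each gene was then compared between the cell lines, as the A549 log2 fold change minus the H1792 one in a fit of all 12 samples. MYBL2 (-4.19, SE 0.723, adjusted p = 0.00361), FOXM1 (-3.86, SE 0.350, adjusted p = 6.8e-05), RB1 (-3.90, SE 0.786, adjusted p = 0.00717) and E2F7 (-5.92, SE 1.35, adjusted p = 0.0125) responded differently. All 4 differences were negative, among 9 regulators tested, against 11.4% of 11666 genes that passed lower and 10.4% that passed higher. Of these calls, 47.7% were higher, and 23.0% with scaling by library size only, which moved the median to -0.37. The negative value came from a fall in A549 for MYBL2 and FOXM1 and from a rise in H1792 for RB1 and E2F7. The E2F7 difference was -7.14 without A549 RG7112 replicate 1 or H1792 DMSO replicate 1 and -5.19 without H1792 DMSO replicate 2, and that of MYBL2 was -5.36 without A549 RG7112 replicate 1, all of which passed. The other 5 regulators did not pass with all 12 samples. RBL2 was at 1.77 (95% interval -0.27 to 3.81, adjusted p = 0.196), E2F6 at -1.50 (-3.27 to 0.27, adjusted p = 0.205) and E2F5 at -0.82 (-1.73 to 0.08, adjusted p = 0.175). E2F3 was at -0.80 (-1.99 to 0.39) and E2F4 at 0.25 (-0.52 to 1.02). E2F3 passed at -1.61 without H1792 DMSO replicate 1 (adjusted p = 0.00735), and RBL2 at 2.70 without A549 DMSO replicate 3 (adjusted p = 0.0420).

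The cell lines were also compared without the drug. RB1 was higher in A549 than in H1792 with DMSO by 3.70 on the log2 scale (SE 0.459, adjusted p = 0.000808). Its counts, 77 against 4, gave a ratio of 14.7 per depth (5.50 to 55.2, counting error only). E2F5 was higher in A549 by 0.89 (SE 0.284, adjusted p = 0.0369). That call was lost when any 1 of the 6 DMSO samples was left out, with adjusted p between 0.0504 and 0.116. It was also lost in 6 of 11 alternative fits, among them DESeq2 (adjusted p = 0.0767) and the replicate block (adjusted p = 0.0694). Hence 2 of 8 regulators tested were higher in A549 and 0 lower, against 26.5% and 23.2% of 10330 genes. The share of higher calls over all genes was 53.3%, and 63.3% with library size only. At an unadjusted p under 0.05, MYBL2 was lower in A549 (-0.57, adjusted p = 0.0610), and DESeq2 called it with an adjusted p of 0.0387. MYBL2 also passed without A549 DMSO replicate 3, at -0.69 (adjusted p = 0.0492), and E2F3 without H1792 DMSO replicate 1, at 1.36 (adjusted p = 0.0139). E2F7, too low for the model, was higher in A549 by 1.12 in log2(CPM + 1) (two-sided exact permutation p = 0.2).

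The pocket proteins were set against MYBL2 with FOXM1 and against the E2F factors within each sample, as a ratio of summed CPM per kb. No test was made because the genes were chosen with results known. The sum of MYBL2 and FOXM1 was 18.8 to 40.7 times that of the pocket proteins in the A549 DMSO samples and 0.763 to 2.63 times with RG7112. In H1792 the ratio was 17.9 to 54.3 with DMSO and 29.04 to 47.5 with RG7112. The 2 treatments were apart in A549 and overlapped in H1792.

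For the sum of E2F3 to E2F7 the picture was the other way round. It was 3.31 to 10.0 times the pocket sum in A549 with DMSO and 2.14 to 11.1 times with RG7112, which overlapped. In H1792 it was 2.82 to 4.71 with DMSO and 8.60 to 9.95 with RG7112, without overlap. The pocket sum itself overlapped between treatments in both lines, at 1.43 to 4.59 and 1.66 to 5.78 CPM per kb in A549 and at 1.62 to 4.81 and 2.21 to 2.91 in H1792. The E2F sum in H1792 was 7.63 to 13.6 CPM per kb with DMSO and 21.9 to 25.6 with RG7112. It includes E2F6 and E2F7, which repress without a pocket protein. Their means in H1792 went from 3.14 to 5.86 and from 0.134 to 3.74 CPM per kb. Those of E2F3, E2F4 and E2F5 went from 2.08 to 5.22, from 4.99 to 6.57 and from 1.02 to 1.77.

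**Figure D4:**
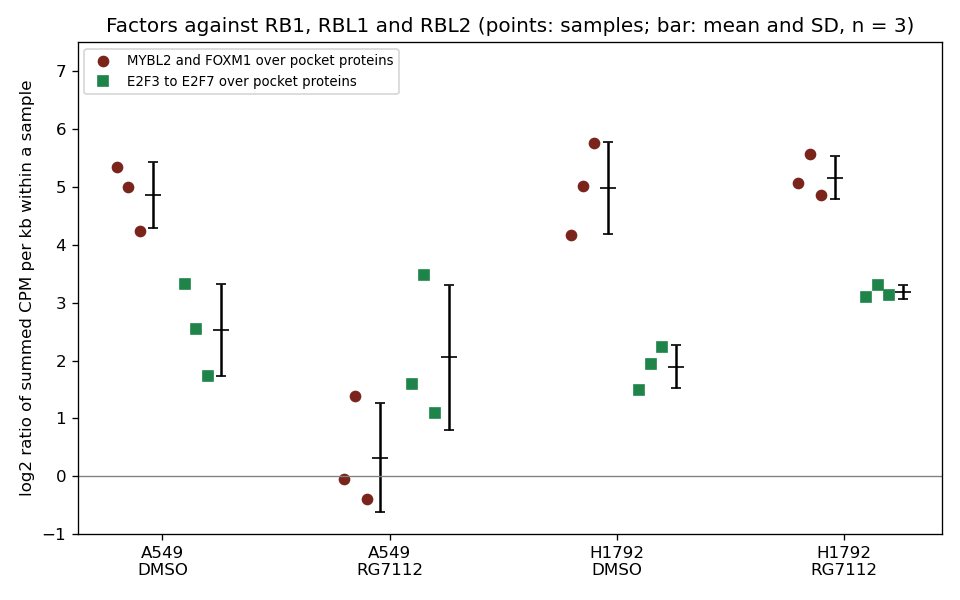
log2 ratio, within each sample, of the summed CPM per kb of MYBL2 and FOXM1 (circles) and of E2F3 to E2F7 (squares) to that of RB1, RBL1 and RBL2, with the mean and SD of 3 samples as bars. The circles drop from 4.24 to 5.35 down to -0.39 to 1.39 in A549, and the squares go from 1.497 to 2.24 up to 3.10 to 3.31 in H1792.

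Genes that work with these regulators were taken from lists, of which the other E2F genes, the DP partners and the MuvB core come first. The counts for each list are to be read against the shares of all genes tested that passed, which were 4.35% higher and 4.03% lower in A549 and 17.7% higher and 16.5% lower in H1792. In A549, 0 of 8 tested passed, with 2 lower at an unadjusted p under 0.05 and 1 called by DESeq2. TFDP1, the DP partner of most E2F factors, had a log2 fold change of -1.13 (adjusted p = 0.101) and the MuvB subunit LIN9 one of -1.53 (adjusted p = 0.206). In H1792, 3 of 9 rose and 1 fell, where 17.7% and 16.5% of all genes did. TFDP1 rose by 0.96 (adjusted p = 0.0184) and RBBP4, the histone-binding subunit of MuvB, by 1.03 (adjusted p = 0.00567). LIN54, the subunit that contacts the CHR, rose from 1 count in the 3 DMSO samples to 140 counts, a ratio of 103 per depth (18.2 to 4107, counting error only, adjusted p = 0.00325). LIN37, which MuvB needs to repress, fell by 1.27 (adjusted p = 0.0272). The activator E2F2 had at most 3 counts in any sample and the atypical repressor E2F8 at most 23, with a log2 fold change of 0.63 for E2F8 in H1792 (adjusted p = 0.666). E2F1 was not analysed here. The 4 calls in H1792 were 2 without RG7112 replicate 2 or in the fit with the replicate block, which left 1 once GC content was corrected as well.

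Among the G1 cyclins, their kinases and the inhibitors that act on pocket proteins, 1 of 10 rose and 2 fell in A549. CDKN1A (p21), a direct p53 target and inhibitor of CDK2, was at 37.3 ± 11.5 CPM with DMSO and 452 ± 440 CPM with RG7112 and rose by 3.58 (SE 0.705, adjusted p = 0.0252). CDK2, the kinase of cyclin E, fell by 1.51 (adjusted p = 0.0193), and CDK4, the kinase of cyclin D, by 0.81 (adjusted p = 0.0111). None of these 3 calls was left without A549 DMSO replicate 2, and 1 was left without A549 DMSO replicate 1 or A549 RG7112 replicate 2. In H1792, 2 of 9 rose and 0 fell, beside 17.7% and 16.5% of all genes, with 2 lower at an unadjusted p under 0.05 and 4 called by DESeq2. CDK2 rose by 1.51 (adjusted p = 0.00851). CCND1 (cyclin D1) rose from 1.53 ± 0.791 to 92.1 ± 33.0 CPM (log2 fold change 5.74, adjusted p = 0.00272). CCND3 (cyclin D3) had a log2 fold change of -0.96 (adjusted p = 0.0533). The 2 calls in H1792 were 4 without DMSO replicate 3 or RG7112 replicate 1. CDKN1A was at 7.35 ± 5.92 and 8.09 ± 3.71 CPM (0.15, adjusted p = 0.882). The response differed between the lines for CDK2 (-2.95, adjusted p = 0.000873), CDK4 (-1.06, adjusted p = 0.00134), CCND1 (-6.08, adjusted p = 0.0215) and CDKN1A (3.40, adjusted p = 0.0450).

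Among target genes of these regulators in A549, 10 of 19 G1/S genes with E2F sites fell, 0 rose and 9 did not pass, against 4.03% of all genes that passed lower, with 0 higher at an unadjusted p under 0.05, and the median log2 fold change was -2.71 against -0.01 over all genes. RRM2, a subunit of ribonucleotide reductase, fell by 5.60 (adjusted p = 0.000283), the replicative helicase subunit MCM5 by 3.27 (adjusted p = 0.000283) and UHRF1, which keeps DNA methylation through replication, by 2.90 (adjusted p = 0.000326). Of 20 G2/M genes bound by MYBL2, MuvB and FOXM1, 17 fell, 0 rose and 3 did not pass, with 0 higher at an unadjusted p under 0.05 and a median of -3.76. KIF23, a kinesin of cytokinesis, fell by 3.28 (adjusted p = 0.000283), the mitotic cyclin CCNB1 by 3.27 (adjusted p = 0.000326) and BIRC5 (survivin) by 4.95 (adjusted p = 0.000326). The number of G2/M genes that fell was 11 without A549 DMSO replicate 2 or A549 RG7112 replicate 1, and 6 when every sample had to hold 10 counts, which left 5 of the G1/S genes.

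In H1792, 3 of 20 G1/S genes rose and 4 fell, close to the 17.7% and 16.5% of all genes, with a median of 0.02. RRM2 rose by 1.13 (adjusted p = 0.00404), and MCM3 fell by 1.19 (adjusted p = 0.00529) and MCM5 by 0.45 (adjusted p = 0.00663). Of 20 G2/M genes, 8 rose and 3 fell, against the same shares, with a median of -0.09. The mitotic kinase genes BUB1 and NEK2 rose by 1.12 (adjusted p = 0.00404) and 1.76 (adjusted p = 0.00439), and HMMR, of the mitotic spindle, rose by 1.01 (adjusted p = 0.00866). BIRC5 fell by 0.57 (adjusted p = 0.0125). These 11 calls were 7 after the GC correction and 2 with the replicate block in addition, and 5 to 7 without H1792 DMSO replicate 2 or 3 or RG7112 replicate 2 or 3. The response was lower in A549 than in H1792 for 15 of 22 G1/S genes and 17 of 20 G2/M genes, and higher for 0, with 1 and 0 higher at an unadjusted p under 0.05. Over all 11666 genes tested for that difference, 11.4% passed lower and 10.4% higher.

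Partners of E2F6 in the PRC1.6 complex formed the last list. In A549, 0 of 9 passed, with 2 lower at an unadjusted p under 0.05 and 2 called by DESeq2. CBX3 (HP1 gamma) had a log2 fold change of -0.94 (adjusted p = 0.0721) and the ubiquitin ligase RNF2 one of -0.53 (adjusted p = 0.453). In H1792, 2 of 9 rose and 0 fell, beside 17.7% and 16.5% of all genes, with 0 lower at an unadjusted p under 0.05. MGA, the scaffold that brings E2F6 and MAX into the complex, rose by 2.76 (adjusted p = 0.00740), and the other one was TFDP1, which this list shares with the DP partners. The log2 fold change of WDR5 was 2.23 (adjusted p = 0.109). In H1792, 1 call was left without RG7112 replicate 2 or 3, and 0 with all 12 samples in one fit, whereas 5 passed with library size only.

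**Figure D5:**
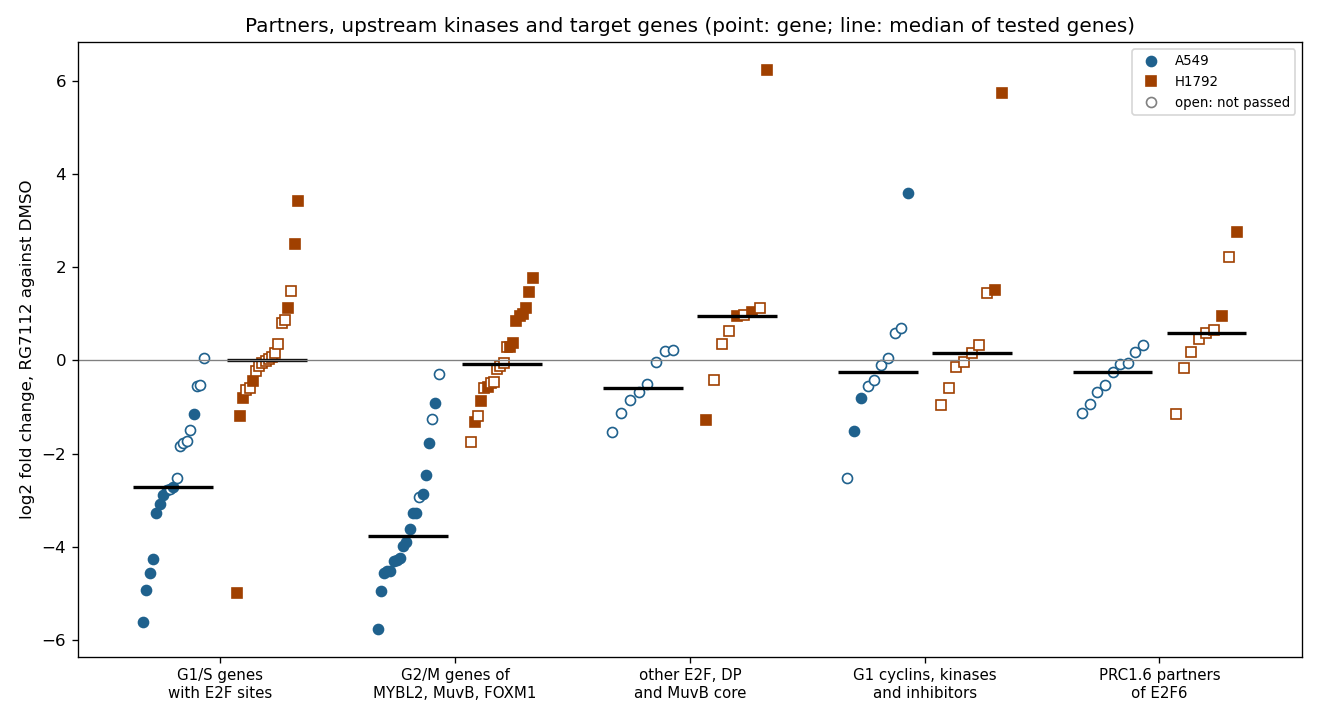
log2 fold change, RG7112 against DMSO, of each tested gene of 5 lists in A549 (circles) and H1792 (squares), filled where the adjusted p is under 0.05, with the median of each list as a line. The medians of the G1/S and G2/M lists lie at -2.71 and -3.76 in A549 and at 0.02 and -0.09 in H1792.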

How the data were processed

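RNA was measured in A549 and H1792 cells with DMSO or RG7112, 3 samples each. Poly-A RNA was sequenced from both ends. Per the paper's methods, kallisto 0.45.0 estimated transcript abundances on the Ensembl GRCh38 transcriptome, and gene-level sums were made with biomaRt. The authors deposited these estimated counts (expected counts) per gene, in whole numbers and not normalized. The kit named for second-strand synthesis was directional, and whether counting used strand is not given in the sources used here. Of 20595 identifiers, 17978 had a symbol in the gene name table and 18011 were in GENCODE v29.

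In R 4.3.3, genes were filtered with filterByExpr (minimum count 10, minimum total 15), normalized by TMM and tested with edgeR 4.0.16 (robust quasi-likelihood), each cell line on its own as in the paper's methods, or all 12 samples for the difference between responses. Genes left out by the filter were compared by an exact permutation test of log2(CPM + 1). Length is the union of exons in GENCODE v29. No replicate pair was close to being 1 library (chi-square per degree of freedom 5.12 to 23.3). On simulated counts for A549, 65 of 100 genes changed by 2 on the log2 scale and 94 of 100 changed by 3 were recovered, among 10158 unchanged genes tested, 4 of which were called. For H1792 these were 81 and 95 of 100, and 4 of 9469. These simulated counts held no trend with GC content, unlike the data. With such a trend added and corrected for, 7 of 10151 unchanged genes were called for A549 and 17 of 9411 for H1792. The main fit made no GC correction, so these counts do not give its rate of false calls.

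Alternatives were DESeq2 1.42.0, limma-trend (limma 3.58.1), other size factors and filters, stricter thresholds, a GC correction (loess, span 0.5), the replicate number as a block, coding-transcript length and leaving out each sample. Leaving out replicate 3 of both A549 treatments and the correction for GC and length were added after seeing the data. The 10 regulators and the lists were chosen with earlier results of these data known. From each list, the 3 genes with the smallest p in each line were named, with E2F1, E2F2, E2F8 and CDKN1A. LIN37 was named after its values were seen. CCNA2, CKS2 and RYBP were not analysed here.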

Additional observations from a re-analysis of the deposited data

Results flagged for a closer look

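The response to RG7112 differed between A549 and H1792, by the interaction test over all 12 samples, for 4 of the 9 regulators tested. Of all 11666 genes tested, 11.4% passed lower and 10.4% higher. FOXM1 differed by -3.86 on the log2 scale (adjusted p = 6.8e-05) and MYBL2 by -4.19 (adjusted p = 0.00361), and both fell in A549. RB1 differed by -3.90 (adjusted p = 0.00717) and E2F7 by -5.92 (adjusted p = 0.0125), and both rose in H1792. RB1 and E2F7 rested on 4 and 7 counts in the H1792 DMSO samples, and GC content went with the response in both lines. The part of GC content in these differences was not tested beyond the correction, under which all 4 passed.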

How the results depend on the processing

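FOXM1 in A549, RB1 with DMSO and the 4 differences between the lines kept their calls in every fit that tested them at an adjusted p under 0.05, and E2F7 missed 0.01 for the difference. The number of regulators called in A549 (2) was 1 with at least 10 counts in every sample, where MYBL2 was not tested, 1 at an adjusted p under 0.01, and 1 to 2 without each sample in turn. In H1792 (2) it was 4 by library size only, where the median of all genes moved to 0.27, 4 with the GC correction, 4 with GC and length, and 0 with the replicate block and GC correction. With at least 10 counts in every sample, RB1 and E2F7 were not tested in H1792. The calls there were E2F3 (adjusted p = 0.0473) and E2F5 (adjusted p = 0.0392) instead. In H1792, limma-trend (adjusted p = 0.0438) and all 12 samples in one fit (adjusted p = 0.0411) added E2F3 to RB1 and E2F7. For the difference between responses (4) it was 1 with at least 10 counts in every sample, since RB1, E2F7 and MYBL2 were then not tested. With DMSO (2) it was 1 with no filter, with at least 10 counts in every sample, with an absolute log2 fold change over 1, at an adjusted p under 0.01, with the GC correction, with and without the replicate block, and with GC and length, and 1 to 2 without each sample in turn. With DESeq2 and with the replicate block alone, MYBL2 was called in place of E2F5 (adjusted p = 0.0387 and 0.0421), so the number stayed at 2.

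Replicate numbers did not pair the samples in H1792 and went with the samples only in part in A549. There, DMSO replicate 3 correlated with RG7112 replicate 3 (0.293) and negatively with RG7112 replicates 1 (-0.199) and 2 (-0.166). The main fit did not use the replicate number. Same-numbered samples had correlations of 0.145, 0.0668 and 0.293 in A549 and -0.0386, -0.0182 and -0.000216 in H1792, and not every sample correlated best with its own number. The replicate block alone left RB1 (adjusted p = 0.0337) and E2F7 (adjusted p = 0.0403) called in H1792 and MYBL2 called in A549 (adjusted p = 0.0427). It took the genes called from 900 to 938 in A549 and from 3384 to 1840 in H1792.

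Log2 fold changes near 0 changed sign. E2F5 in A549 was 0.11 with the GC correction, 0.13 with the block and GC, 0.10 with GC and length, 0.039 without replicate 3 of both treatments and -0.33 to 0.015 without each sample in turn, above 0 without RG7112 replicate 3. MYBL2 in H1792 was 0.074, 0.064 and 0.20 under the first 3 of these. The E2F4 difference between lines was -0.33, -0.35 and -0.29 under them, -0.16 by library size only, where the median moved to -0.37, and -0.036 to 0.43 without each sample in turn, below 0 without A549 RG7112 replicate 2. FOXM1 with DMSO was 0.033 by library size only, where the median moved to 0.29, and -0.37 to 0.084 without each sample in turn, above 0 without H1792 DMSO replicate 2. The cause was not tested. Over all genes, 900 passed in A549, against 1438 with DESeq2, 296 at an adjusted p under 0.01 and 321 to 725 without each sample. In H1792, 3384 passed, against 1450 with a log2 fold change over 1, 1383 at 0.01, 909 with the block and GC and 1851 to 3377 without each sample. The difference between lines had 2539, against 848 at 0.01, 1633 with the block and GC and 1584 to 2978 without each sample. For the lists, the fewest and most calls over all alternatives were 5 to 12 (G1/S, main 10) and 6 to 18 (G2/M, main 17) in A549, and 2 to 11 for both in H1792 (main 7 and 11).

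With the mean length of coding transcripts, the log2 ratio of MYBL2 and FOXM1 to the pocket proteins was 3.96 and -0.51 in A549 (DMSO, RG7112) and 3.96 and 4.28 in H1792, and that of the E2F factors with RG7112 in H1792 was 2.80. Without each sample in turn the first ratio was -0.22 to 0.68 in A549 with RG7112, the lowest without replicate 2. In H1792, E2F4 and E2F5 were the regulators added by library size only. Depth limits RBL1, E2F7 in A549 and RB1 in H1792 with DMSO.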
